A study of Mus musculus with 18 samples.

Results

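The genes described here encode proteins of the splicing machinery: every gene of the count table whose symbol begins with Snrp, Sf3a, Sf3b, Prpf, Srsf or Hnrnp, leaving out 1 symbol. The rule uses names and no measured value. It gave 62 of the 11243 genes in the table. The small nuclear ribonucleoprotein (snRNP) group held 33 of them, namely 11 Snrp, 9 Sf3a or Sf3b and 13 Prpf genes. The SR group held 10 Srsf genes and the heterogeneous nuclear ribonucleoprotein (hnRNP) group 19 Hnrnp genes. The question was how the mRNAs of these groups compare in total and in polysome-associated mRNA of macrophages given LPS, with and without inhibition of mTOR.

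Introns are removed by the spliceosome, which assembles on each intron from snRNPs made of short nuclear RNAs and proteins. The Sm proteins encoded by Snrpb, Snrpd1, Snrpd2, Snrpd3, Snrpe, Snrpf and Snrpg form a ring around most of these RNAs, the Sf3a and Sf3b proteins help the U2 snRNP to bind the branch point, and many Prpf proteins belong to the tri-snRNP that brings in the catalytic centre. SR proteins bind exons through RNA recognition motifs and recruit the machinery with their arginine- and serine-rich tails, while hnRNP proteins coat nascent transcripts and often repress the use of nearby splice sites. In macrophages, alternative splicing of signalling and cytokine transcripts is part of the response to bacterial products.

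The cells were RAW264.7, an established mouse macrophage line. Control cells received vehicle (DMSO), LPS cells received 500 ng/mL lipopolysaccharide from Salmonella minnesota for 6 h, and the third group was first given torin1, which blocks the kinase mTOR, at 100 nM and then the same LPS after 15 min. There were 3 independent experiments covering every treatment, and from each of the 9 lysates total mRNA and mRNA of the pooled heavy polysomes, that is mRNA carrying several ribosomes, were sequenced separately. Libraries held between 27800983 and 47725557 counts, and the splicing genes took between 0.711% and 1.33% of them. The lowest count of any of these genes in a library was 89, for Hnrnph3. All 10 macrophage markers looked up were in the table, and the 10 markers of T, B and epithelial cells were not. Of 4 fibroblast markers 1 (Pdgfrb) was present, at a mean of 0.739 CPM. Of 6 LPS-response genes looked up, 4 (Tnf, Il1b, Ptgs2 and Cxcl10) were in the table, and these rose with LPS in total mRNA. Il6 and Nos2 were not in the table. Levels are in CPM, counts scaled to one common library size, after TMM scaling, which sets each library against the bulk of its genes, and are listed for experiments 1, 2 and 3.

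The library farthest from the mean of its treatment was the polysome library of LPS with torin1 from experiment 2. Over the 62 genes its root mean square deviation was 0.360 on the log2 scale, and the other libraries lay between 0.106 and 0.252. Counts of changed genes in polysome-associated mRNA are therefore also given with each experiment left out. In such bulk libraries fewer cells carrying an mRNA and less of it per cell cannot be told apart. Changes are relative to the bulk of genes: the share of counts that fell on the splicing genes was 1.28% ± 0.0517 in total mRNA of control cells, 1.09% ± 0.0615 after LPS and 0.987% ± 0.0780 after torin1 plus LPS (SD, n = 3). In polysome-associated mRNA the shares were 1.05% ± 0.00709, 0.862% ± 0.0632 and 0.804% ± 0.0820 in the same order. With library totals in place of TMM, the median of all genes moved with LPS from −0.02 to −0.38 in total mRNA and from −0.03 to −0.38 in polysome-associated mRNA, and the splicing genes moved with it.

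Sequences around the start sites are shown for the Sf3a and Sf3b genes because the share of genes with a given motif was highest there. RefSeq start windows of GRCm38.p6, from 250 bases before to 50 bases after the start, were at hand for 54 of the 62 genes. A gene could have several windows and was counted if any of them held the motif. The letters CCGGAAG were searched on both strands and are known as a core that ETS transcription factors bind. They were present in 6 of 7 Sf3a or Sf3b genes (85.7%), 4 of 9 Snrp, 4 of 11 Prpf, 4 of 10 Srsf and 1 of 17 Hnrnp genes (5.88%). The motif stood in 35.2% of the splicing genes with a window, in 21.6% of 8568 such genes in the count table and in 9.93% of all 27025. The E-box CACGTG, which cannot share bases with CCGGAAG, was in 14.8% of the splicing genes with a window, against 12% in the count table. It was in 0 of 7 Sf3a or Sf3b and 0 of 10 Srsf genes. A match describes letters and not binding. The stretches around the match in the 6 Sf3a and Sf3b genes are given 5′ to 3′ on the strand of the gene, with the motif or its reverse complement in capitals.
Sf3a1, chr11:4160336-4160364, plus strand: agagggcgggaCCGGAAGtgctcccgcgg
Sf3a2, chr10:80798648-80798676, plus strand: cgcctttgctcCCGGAAGggatcgcttcg
Sf3a3, chr4:124714760-124714788, plus strand: cccccaagacaCTTCCGGgacacgcggaa
Sf3b2, chr19:5295451-5295479, minus strand: ggattacgcaaCCGGAAGtttctggaagt
Sf3b3, chr8:110847015-110847043, minus strand: cccggtgggcgCTTCCGGgcttgcgaggt
Sf3b6, chr12:4817512-4817540, plus strand: tcgccccgcccCTTCCGGtccgcaatccg

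The Sf3b6 window held the motif again 15 bases downstream on the other strand, in the stretch cggtccgcaatCCGGAAGcgttctggagc. In Sf3a1 the motif ended at the base before the annotated start. These 6 genes did not all move in one direction with either treatment.

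In resting cells the groups differed in level and in how far their mRNAs were found in heavy polysomes. Levels per kb used the annotated exons of a gene merged over all its transcripts, so they depend on the annotation. Per kb of such exon, the median level in control total mRNA was 46.8 CPM for Srsf, 28.2 CPM for Hnrnp, 26.7 CPM for Sf3a and Sf3b, 22.1 CPM for Snrp and 15.8 CPM for Prpf genes, against 7.08 CPM for 10734 genes with a length. Hnrnpab was the highest of the 62 on this scale, with 206 CPM per kb, and Prpf40b the lowest, with 1.26 CPM per kb. In control polysome-associated mRNA the medians per kb were 41.8 CPM for Srsf, 35.2 CPM for Snrp, 29.8 CPM for Sf3a and Sf3b, 18.8 CPM for Hnrnp and 10.2 CPM for Prpf genes.

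Between polysome-associated and total mRNA of control cells, 16 of the 62 genes were higher and 33 lower in polysomes (edgeR, FDR 0.25 and a fold of at least 1.2), where 34.3% of all genes were higher and 31.1% lower. The Snrp genes stood on the polysome side, with 9 of 11 higher and 1 lower, and the hnRNP genes on the other, with 0 of 19 higher and 14 lower. Sf3a and Sf3b genes split into 4 higher and 3 lower, Prpf genes into 1 and 9, and Srsf genes into 2 and 6. The median log2 ratio of polysome-associated to total level was 0.70 ± 0.08 for Snrp, −0.05 ± 0.07 for Sf3a and Sf3b, −0.55 ± 0.02 for Prpf, −0.31 ± 0.10 for Srsf and −0.53 ± 0.10 for Hnrnp genes (mean and SD of the group median over 3 experiments), and 0.03 ± 0.04 for all genes. The ratio compares each gene with the average mRNA of a library and not amounts of RNA per cell.

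Single genes spanned a wide range. Sf3b5, the small subunit of the SF3b complex, had the highest ratio, 1.80 (SE 0.49, adjusted p = 0.00735) on the log2 scale, and varied strongly between libraries. Snrpd2, an Sm protein, followed with 1.13 (SE 0.15, adjusted p = 8.34e-05). At the other end stood Hnrnpm with −1.36 (SE 0.16, adjusted p = 3.88e-05), Hnrnph2 with −1.31 (SE 0.21, adjusted p = 0.000213) and Hnrnpu, which binds the nuclear scaffold, with −1.30 (SE 0.22, adjusted p = 0.000267). Among the Snrp genes only Snrpb2, a U2 snRNP protein, was lower in polysomes, with −0.73 (SE 0.15, adjusted p = 0.0012), and Srsf9 was the SR gene farthest on the polysome side, with 0.88 (SE 0.13, adjusted p = 0.000149). The Hnrnpm model overlaps March2 on the same strand, so reads there are uncertain. Same-strand overlaps were also annotated for other members, among them Snrpa1, Hnrnpul2, Sf3a3, Sf3b3, Srsf4 and Srsf11.

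Coding length went with these ratios. The median coding length was 378 nt for Snrp, 772.5 nt for Srsf, 1347 nt for Hnrnp, 1503 nt for Sf3a and Sf3b and 1995 nt for Prpf genes. Of the 15 splicing genes with coding sequences under 750 nt, 12 had a log2 ratio above 0 (median 0.84), and of the 47 longer ones 8 did (median −0.50). The Spearman correlation between coding length and ratio was −0.48 over the 62 genes and −0.28 over 10734 genes in control cells, as a description over genes that share libraries. Among all genes the medians were 0.40 for 2160 short and −0.07 for 8574 longer coding sequences, so short coding sequences stood higher in polysomes in the whole table as well. The same correlation over the 62 genes was −0.50 under LPS and −0.51 under LPS plus torin1.

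**Figure D1:**
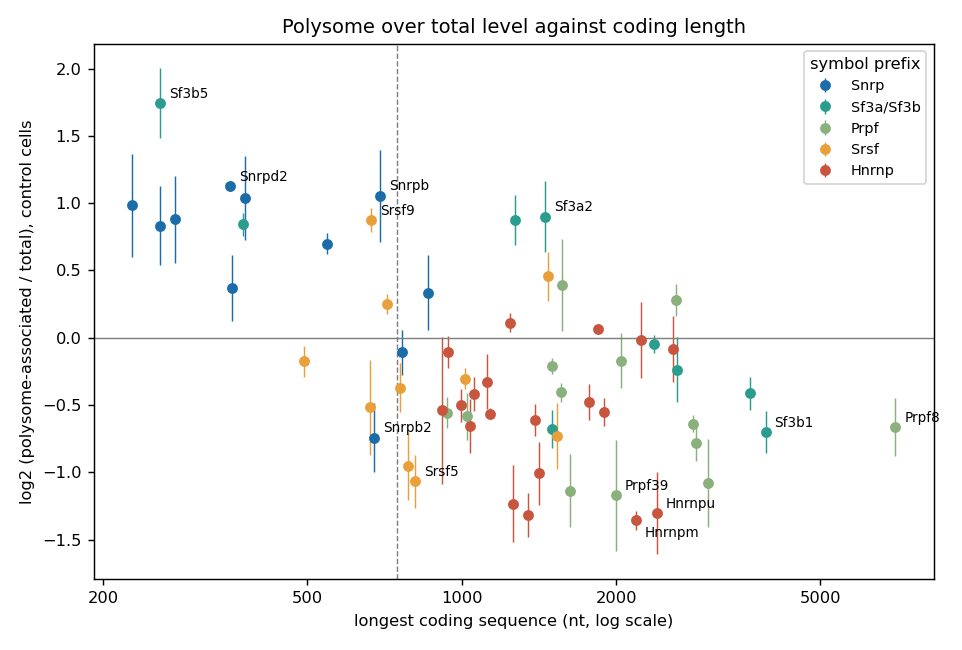
Log2 ratio of polysome-associated to total level in control cells (mean and SD of 3 experiments, vertical axis) against the longest coding sequence (nt, log axis) for the 62 genes, coloured by symbol prefix, with a dashed line at 750 nt. Snrp genes lie at the upper left, with 9 of 11 above 0, and hnRNP genes mostly below 0.

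In every treatment the Snrp genes had the highest median ratio, followed by Sf3a and Sf3b and then Srsf genes, while hnRNP and Prpf genes changed places at the low end. The Snrp median of the ratio was 0.60 ± 0.09 after LPS and 0.61 ± 0.14 after torin1 plus LPS, and the hnRNP median was −0.58 ± 0.18 and −0.49 ± 0.21. For Prpf genes the medians were −0.48 ± 0.18 and −0.55 ± 0.14, for Sf3a and Sf3b genes −0.238 ± 0.125 and −0.152 ± 0.145, and for Srsf genes −0.307 ± 0.154 and −0.235 ± 0.166. Within each of the 5 groups the medians of the 3 experiments overlapped between treatments. With equal experiment numbers taken as pairs, the Sf3a and Sf3b median was lower with LPS than in control in 3 of 3. It went from 0.019 to −0.292, from −0.116 to −0.326 and from −0.042 to −0.095. In the other 4 groups the direction differed between experiments.

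**Figure D2:**
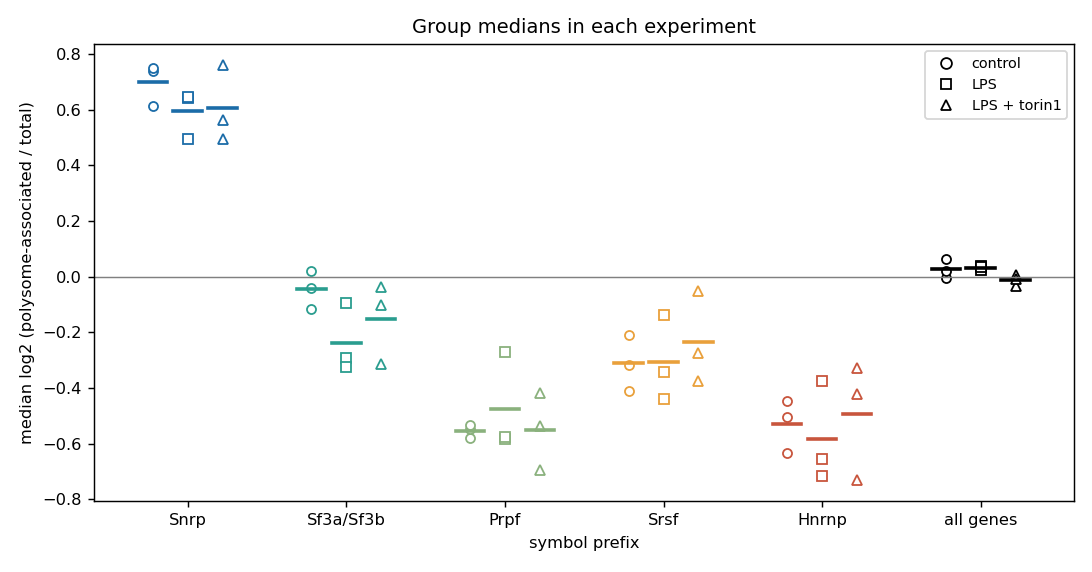
Median log2 ratio of polysome-associated to total level for each group and for all 11243 genes, in each of 3 experiments (symbols) with the mean (bars), for control, LPS and LPS with torin1. Snrp medians lie between 0.496 and 0.761 and hnRNP medians between −0.731 and −0.329 in every treatment.

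Relative to the bulk of genes LPS raised more of these mRNAs than it lowered, a direction that turned round on library totals. In total mRNA 22 of the 62 genes rose and 3 fell (edgeR, FDR 0.25), against 32.2% of all genes higher and 34.3% lower, and the largest change was 1.82-fold. The share that rose was thus close to that of all genes, and fewer fell. In polysome-associated mRNA 12 rose and 7 fell, against 26.4% and 28.7% of all genes, so both rises and falls were rarer there than among all genes. With the experiment as a replicate block 29 rose and 9 fell in total mRNA, while the count of all genes went from 7471 to 8223. At an FDR of 0.05 it was 7 of the 62 genes in total and 1 in polysome-associated mRNA. The polysome count was 2 without experiment 1, 5 without experiment 3 and 37 without experiment 2. In the same order 3901, 4224 and 7251 of all 11243 genes passed, against 6191 with every experiment, so calls moved table-wide. On library totals alone the split turned to 1 higher and 38 lower in total mRNA and to 1 higher and 31 lower in polysome-associated mRNA. There 8688 and 7640 of all genes passed. With RLE scaling the split was 12 higher and 4 lower in polysome-associated mRNA, where 6192 of all genes passed. The median of the 62 genes lay 0.13 above that of all genes in total mRNA under either scaling, and 0.10 above it in polysome-associated mRNA, where it lay 0.05 above without experiment 3 and 0.19 above without experiment 2.

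By group, the rises with LPS in total mRNA were 4 of 11 Snrp, 3 of 9 Sf3a or Sf3b, 5 of 13 Prpf, 2 of 10 Srsf and 8 of 19 Hnrnp genes, and the falls were Prpf19, Srsf10 and Hnrnpr. The group medians were 0.14 ± 0.16 for Snrp, 0.07 ± 0.03 for Sf3a and Sf3b, 0.11 ± 0.03 for Prpf, 0.09 ± 0.03 for Srsf and 0.11 ± 0.08 for Hnrnp genes (log2, mean and SD over 3 experiments), against −0.02 ± 0.01 for all genes. In polysome-associated mRNA they were 0.18 ± 0.17, −0.07 ± 0.14, 0.04 ± 0.19, 0.11 ± 0.04 and 0.03 ± 0.12 in the same order. Of the 12 genes that rose in polysomes, 11 rose in total mRNA too, which is 91.7% of the former and 50% of the 22 latter.

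With torin1 falls outnumbered rises in both RNA types. Between LPS with torin1 and LPS alone, 30 of the 62 fell and 2 rose in total mRNA, where 26.4% of all genes fell and 27.3% rose. In polysome-associated mRNA 15 fell and 3 rose, against 18.2% and 20.3% of all genes. At an FDR of 0.05, 17 fell and 2 rose in total mRNA and 4 fell and 1 rose in polysome-associated mRNA. The polysome count of 18 was 5 without experiment 1, 2 without experiment 3 and 27 without experiment 2. In the same order 1782, 1187 and 5182 of all genes passed, against 4322 with every experiment. No call of the splicing genes in either RNA type changed sign under the alternatives run. On library totals alone 11 fell and 6 rose in polysome-associated mRNA, where 4296 of all genes passed. All 15 genes that fell in polysomes fell in total mRNA as well, which is 50% of the 30.

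The falls were unevenly spread over the groups, a difference that was not tested. In total mRNA 7 of 11 Snrp, 5 of 9 Sf3a or Sf3b, 6 of 13 Prpf, 6 of 10 Srsf and 6 of 19 Hnrnp genes fell. In polysome-associated mRNA it was 5, 1, 3, 4 and 2 genes, and the 3 that rose (Hnrnpll, Hnrnph3 and Hnrnpul2) were hnRNP genes. All 11 Snrp and all 10 Srsf genes had negative estimates in both RNA types, while 8 of 19 hnRNP estimates were positive in total and 11 of 19 in polysome-associated mRNA. Group medians in total mRNA were −0.36 ± 0.06 for Snrp, −0.19 ± 0.02 for Sf3a and Sf3b, −0.22 ± 0.01 for Prpf, −0.29 ± 0.09 for Srsf and −0.08 ± 0.04 for Hnrnp genes, against 0.0088 ± 0.0018 for all genes. In polysome-associated mRNA they were −0.52 ± 0.13, −0.25 ± 0.07, −0.16 ± 0.06, −0.29 ± 0.07 and 0.07 ± 0.14, against −0.03 ± 0.01. Comparisons with LPS and with torin1 share the LPS libraries, so a high LPS library moves both.

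**Figure D3:**
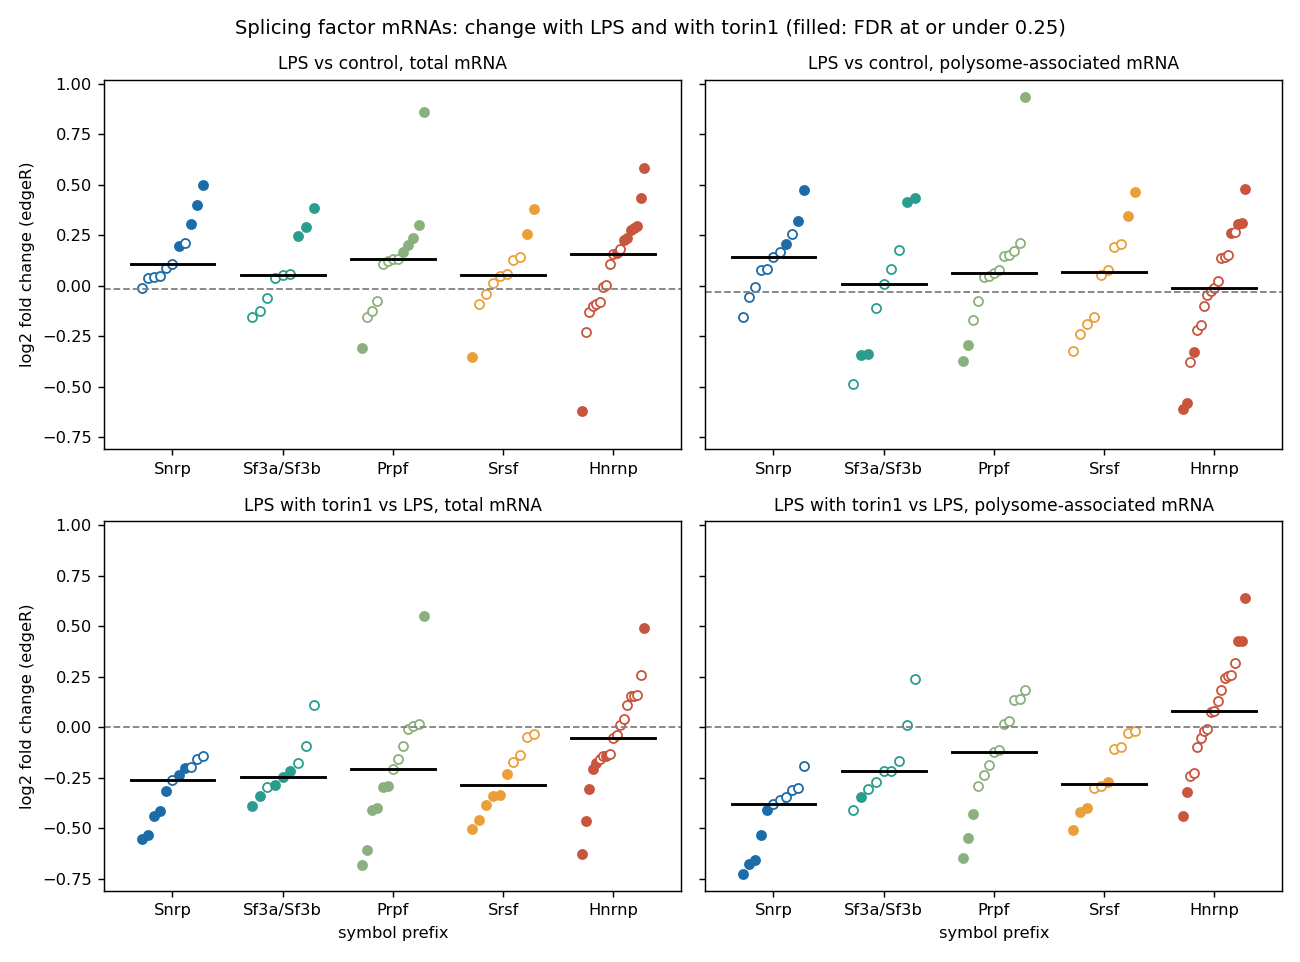
Log2 fold changes from edgeR (vertical axis) of the 62 genes by symbol prefix, for LPS against control (top) and LPS with torin1 against LPS (bottom), in total (left) and polysome-associated mRNA (right). Filled points passed an FDR of 0.25, black bars are group medians and the dashed line is the median of all genes. With torin1 the 11 Snrp and 10 Srsf points lie below 0 in both RNA types, and hnRNP points lie on both sides.

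Among the Sm ring genes Snrpe had the largest fall with torin1 in both RNA types. Snrpe in polysome-associated mRNA stood at 97.3, 154.5 and 120.3 CPM in control cells, at 180.6, 137.99 and 125.2 CPM with LPS and at 102.1, 87.02 and 74.8 CPM with LPS and torin1. Total Snrpe mRNA stood at 67.3, 68.8 and 62.3 CPM, 82.6, 68.2 and 52.7 CPM and 47.6, 51.3 and 39.9 CPM in the same order. All 3 torin1 values lay below all 3 LPS values in both RNA types, and the LPS values overlapped the control values. The log2 change with torin1 was −0.73 (SE 0.21, adjusted p = 0.0422) in polysome-associated and −0.55 (SE 0.16, adjusted p = 0.0244) in total mRNA, and the adjusted p in polysomes was 0.267 without experiment 3. A pseudogene is named after Snrpe, so reads it shares with such copies are uncertain.

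Snrpg and Snrpd2 had larger estimated torin1 falls in polysomes than in total mRNA, as did Snrpe, Snrpb and Snrpd3 of the Sm ring. None of these differences between the RNA types passed the interaction test given further below. Snrpg in polysome-associated mRNA stood at 50.8, 79.3 and 60.2 CPM in control cells, at 75.3, 71.8 and 54.01 CPM with LPS and at 39.4, 50.9 and 35.1 CPM with LPS and torin1. Total Snrpg mRNA stood at 33.1, 30.5 and 31.1 CPM, 33.6, 31.99 and 28.3 CPM and 25.5, 26.8 and 23.1 CPM in the same order. The torin1 values of Snrpg did not overlap the LPS values in either RNA type, with log2 changes of −0.66 (SE 0.22, adjusted p = 0.0699) and −0.31 (SE 0.10, adjusted p = 0.0458) for polysome-associated and total mRNA. Snrpd2 in polysome-associated mRNA stood at 115.02, 143.6 and 120.7 CPM in control cells, at 188.9, 154.6 and 131.2 CPM with LPS and at 114.6, 117.7 and 89.8 CPM with LPS and torin1. Total Snrpd2 mRNA stood at 54.3, 65.1 and 54.3 CPM, 70.04, 64.1 and 65.3 CPM and 50.2, 64.5 and 58.5 CPM in the same order. For Snrpd2 the torin1 values lay below the LPS values in polysomes but overlapped them in total mRNA, with −0.53 (SE 0.18, adjusted p = 0.0732) and −0.20 (SE 0.12, adjusted p = 0.217). Both polysome calls were lost without experiment 1 and without experiment 3, with adjusted p of 0.389 and 0.289 for Snrpg and 0.375 and 0.320 for Snrpd2. The call of Snrpd2 in total mRNA was lost without experiment 1 (adjusted p = 0.710), without experiment 3 (adjusted p = 0.428) and on library totals (adjusted p = 0.369).

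In polysomes the torin1 estimates of Snrpd1, Snrpd3 and Snrpf were closer to 0 than those of Snrpg and Snrpd2. Snrpd1 in polysome-associated mRNA stood at 131.4, 181.9 and 126.6 CPM in control cells, at 167.8, 136.98 and 160.97 CPM with LPS and at 138.6, 95.01 and 111.4 CPM with LPS and torin1. Total Snrpd1 mRNA stood at 114.2, 115.6 and 105.6 CPM, 140.7, 106.2 and 98.8 CPM and 98.2, 81.3 and 75.4 CPM in the same order. Snrpd1 fell with torin1 in both, with −0.41 (SE 0.19, adjusted p = 0.169) and −0.44 (SE 0.15, adjusted p = 0.0467), and its torin1 values lay below all LPS values in total mRNA only. The polysome call was lost without experiment 1 (adjusted p = 0.319), without experiment 3 (adjusted p = 0.598) and on library totals (adjusted p = 0.259). Snrpd3 in polysome-associated mRNA stood at 75.01, 101.03 and 91.7 CPM in control cells, at 97.6, 87.6 and 116.3 CPM with LPS and at 86.2, 66.7 and 88.3 CPM with LPS and torin1. Total Snrpd3 mRNA stood at 32.4, 43.4 and 57.4 CPM, 40.8, 38.8 and 61.8 CPM and 37.4, 36.5 and 49.6 CPM in the same order. Snrpd3 passed neither test, at −0.30 (SE 0.17, adjusted p = 0.266) and −0.20 (SE 0.23, adjusted p = 0.566), and passed both with the replicate block (adjusted p = 0.202 and 0.228). Snrpf in polysome-associated mRNA stood at 28.1, 38.6 and 24.4 CPM in control cells, at 36.6, 38.6 and 24.98 CPM with LPS and at 25.7, 28.3 and 21.7 CPM with LPS and torin1. Total Snrpf mRNA stood at 18.7, 17.3 and 14.4 CPM, 23.6, 24.7 and 18.3 CPM and 19.2, 17.5 and 13.3 CPM in the same order. Snrpf rose with LPS in total mRNA, with a log2 change of 0.40 (SE 0.17, adjusted p = 0.0814), and fell there with torin1, with a log2 change of −0.41 (SE 0.17, adjusted p = 0.0986), while in polysomes the torin1 estimate of −0.38 passed with the replicate block (adjusted p = 0.0816, edgeR, against 0.286 without it). Without experiment 2 both calls of Snrpf were lost (adjusted p = 0.292 and 0.309), and that with LPS also on library totals (0.03, adjusted p = 0.890).

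Snrpb, which encodes the largest Sm protein, was the highest Snrp mRNA per kb, and its polysome values ranged widely within each treatment. Snrpb in polysome-associated mRNA stood at 615.7, 292.7 and 439.2 CPM in control cells, at 439.2, 491.7 and 280.1 CPM with LPS and at 274.4, 446.1 and 206.7 CPM with LPS and torin1. Total Snrpb mRNA stood at 230.4, 175.9 and 218.3 CPM, 175.01, 299.6 and 198.6 CPM and 194.5, 207.4 and 207.8 CPM in the same order. The values of the treatments overlapped throughout, and neither contrast passed in either RNA type, with torin1 estimates of −0.36 (SE 0.34, adjusted p = 0.526) and −0.14 (SE 0.18, adjusted p = 0.597). Snrpc and Sf3b5 had the same profile over the polysome libraries, high in control experiment 1 and in experiment 2 of both LPS groups. Snrpa, Sf3b4, Srsf2, Srsf4 and Prpf40b were also highest in these libraries of each treatment, so the profile was not particular to a few genes. Sf3b5 reached 88.2, 72.1 and 62.2 CPM in those 3 libraries and stayed between 17.9 and 67.4 CPM in the other 6.

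Snrpb2 and Snrpa1 encode a pair of proteins that bind the U2 snRNA outside the Sm ring. Snrpb2 had the largest rise with LPS among the Snrp genes in polysomes. Snrpb2 in polysome-associated mRNA stood at 37.1, 48.8 and 46.6 CPM in control cells, at 57.4, 55.4 and 71.5 CPM with LPS and at 53.4, 43.6 and 61.5 CPM with LPS and torin1. Total Snrpb2 mRNA stood at 76.3, 74.2 and 69.7 CPM, 122.7, 99.4 and 89.2 CPM and 87.2, 91.5 and 86.1 CPM in the same order. All LPS values exceeded all control values in both, with log2 changes of 0.48 (SE 0.17, adjusted p = 0.0582) in polysome-associated and 0.50 (SE 0.12, adjusted p = 0.00605) in total mRNA. Both calls were lost on library totals (0.12, adjusted p = 0.611, in polysome-associated and 0.13, adjusted p = 0.327, in total mRNA), and the polysome call also without experiment 1 (adjusted p = 0.309) and without experiment 3 (adjusted p = 0.294). Snrpa1 had the lowest adjusted p of all 62 genes for torin1 in polysomes. Snrpa1 in polysome-associated mRNA stood at 73.3, 82.3 and 84.8 CPM in control cells, at 92.4, 89.9 and 95.2 CPM with LPS and at 58.8, 51.99 and 60.3 CPM with LPS and torin1. Total Snrpa1 mRNA stood at 90.04, 81.9 and 86.9 CPM, 91.4, 90.6 and 86.1 CPM and 61.3, 62.8 and 61.05 CPM in the same order. Its torin1 values lay below all LPS values in both RNA types, with changes of −0.67 (SE 0.13, adjusted p = 0.00753) and −0.53 (SE 0.08, adjusted p = 0.00151), and both calls were made under every alternative run at an FDR of 0.25.

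Among the genes of the U2 branch point complexes, Sf3a1 and Sf3a2 were lower with LPS in polysomes while Sf3b1 and Sf3b6 were higher. Sf3a1 carries the domain that contacts the U1 snRNP. Sf3a1 in polysome-associated mRNA stood at 150.1, 117.4 and 136.01 CPM in control cells, at 100.3, 92.6 and 126.7 CPM with LPS and at 88.2, 70.3 and 88.6 CPM with LPS and torin1. Total Sf3a1 mRNA stood at 148.1, 127.2 and 139.98 CPM, 129.3, 116.1 and 135.3 CPM and 111.8, 87.5 and 90.96 CPM in the same order. Sf3a1 fell with torin1, with a log2 change of −0.39 (SE 0.12, adjusted p = 0.0329) in total and −0.35 (SE 0.16, adjusted p = 0.186) in polysome-associated mRNA with no overlap, and it was also lower with LPS than in control in polysomes, at −0.34 (SE 0.16, adjusted p = 0.142). The polysome call with torin1 was lost without experiment 1 (adjusted p = 0.367), without experiment 3 (adjusted p = 0.663) and on library totals (adjusted p = 0.276), that in total mRNA without experiment 3 (adjusted p = 0.300) and that with LPS without experiment 1 (adjusted p = 0.630). Sf3a2 had the largest called fall with LPS in polysomes among the Sf3 genes. Sf3a2 in polysome-associated mRNA stood at 85.1, 58.2 and 73.6 CPM in control cells, at 52.03, 56.5 and 62.9 CPM with LPS and at 45.8, 46.3 and 47.5 CPM with LPS and torin1. Total Sf3a2 mRNA stood at 37.2, 32.8 and 46.1 CPM, 22.01, 41.3 and 47.97 CPM and 34.8, 31.95 and 37.7 CPM in the same order. Its LPS change was −0.34 (SE 0.16, adjusted p = 0.129) in polysomes and −0.06 (SE 0.24, adjusted p = 0.861) in total mRNA, where 1 LPS library of 22 CPM stood apart, and the polysome call was lost without experiment 1 (adjusted p = 0.723) or 3 (adjusted p = 0.326).

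Sf3b6 is the subunit at the branch point adenosine. Sf3b6 in polysome-associated mRNA stood at 101.8, 127.9 and 114.5 CPM in control cells, at 186.1, 130.3 and 149.7 CPM with LPS and at 158.1, 109.4 and 127.9 CPM with LPS and torin1. Total Sf3b6 mRNA stood at 60.4, 70.8 and 60.5 CPM, 88.8, 71.97 and 66.9 CPM and 68.4, 65.99 and 61.5 CPM in the same order. LPS values lay above all control values in polysomes, with 0.44 (SE 0.18, adjusted p = 0.0893), and the rise in total mRNA of 0.25 (SE 0.12, adjusted p = 0.122) turned to −0.12 on library totals. Both calls were lost without experiment 1 (adjusted p = 0.539 in polysomes and 0.575 in total mRNA), and the polysome call also without experiment 3 (adjusted p = 0.302) and on library totals (0.08, adjusted p = 0.755). Sf3b1, the scaffold of the complex and a target of splicing inhibitors, had the highest level per kb among Sf3 genes in LPS total mRNA, 63.1 CPM per kb. Sf3b1 in polysome-associated mRNA stood at 319.5, 330.2 and 367.6 CPM in control cells, at 500.5, 329.3 and 531 CPM with LPS and at 535.1, 301.1 and 514.6 CPM with LPS and torin1. Total Sf3b1 mRNA stood at 580.8, 531.3 and 538.3 CPM, 908.1, 617.98 and 627.4 CPM and 654.6, 577.2 and 585.8 CPM in the same order. Sf3b1 rose with LPS in total mRNA, with a log2 change of 0.38 (SE 0.15, adjusted p = 0.0576), and in polysomes the change of 0.42 (SE 0.23, adjusted p = 0.203) was lost without experiment 1 (adjusted p = 0.625) and without experiment 3 (adjusted p = 0.504). On library totals both LPS calls of Sf3b1 were lost (adjusted p = 0.952 in total and 0.848 in polysome-associated mRNA). With torin1 its change was −0.24 (SE 0.15, adjusted p = 0.245) in total and 0.01 (SE 0.23, adjusted p = 0.978) in polysome-associated mRNA, and the call in total mRNA was lost without any 1 of the experiments (adjusted p between 0.280 and 0.563).

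Prpf38a, which helps to activate the assembled spliceosome, had the largest change of the 62 with LPS in both RNA types. Prpf38a in polysome-associated mRNA stood at 37.4, 51.6 and 39.8 CPM in control cells, at 86.8, 80.8 and 79.1 CPM with LPS and at 57.98, 52.7 and 55.4 CPM with LPS and torin1. Total Prpf38a mRNA stood at 60.1, 70.9 and 57.7 CPM, 130.2, 117.5 and 95.1 CPM and 65.2, 85.3 and 63.3 CPM in the same order. It rose 1.91-fold in polysome-associated and 1.82-fold in total mRNA, log2 changes of 0.94 (SE 0.15, adjusted p = 0.000888) and 0.86 (SE 0.15, adjusted p = 0.00115), with no overlap, and both calls held under every alternative run. Torin1 lowered it, with a log2 change of −0.55 (SE 0.15, adjusted p = 0.0347) and −0.68 (SE 0.15, adjusted p = 0.00897), again with no overlap, and left it in polysomes at 0.39 (SE 0.15, adjusted p = 0.0637) relative to control. The polysome fall was lost without experiment 3 (adjusted p = 0.298).

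Prpf31, a tri-snRNP protein whose human gene is mutated in retinitis pigmentosa, was lowered by torin1 below its control level. Prpf31 in polysome-associated mRNA stood at 181.5, 181.98 and 170.9 CPM in control cells, at 187.3, 188.99 and 217.9 CPM with LPS and at 130.5, 113.8 and 128.6 CPM with LPS and torin1. Total Prpf31 mRNA stood at 203.9, 206.8 and 207.2 CPM, 244.3, 228.2 and 237.4 CPM and 163.8, 156.5 and 145.5 CPM in the same order. The change against LPS was −0.65 (SE 0.13, adjusted p = 0.00988) in polysome-associated and −0.61 (SE 0.09, adjusted p = 0.00103) in total mRNA, and against control −0.50 (SE 0.13, adjusted p = 0.0124) and −0.41 (SE 0.09, adjusted p = 0.00331). Its rise with LPS in total mRNA, 0.20 (SE 0.09, adjusted p = 0.0869), turned to −0.17 on library totals and was lost without experiment 3 (adjusted p = 0.272). Prpf19, the ubiquitin ligase of the complex named after it, fell with LPS and again with torin1, in total mRNA, with a log2 change of −0.31 (SE 0.12, adjusted p = 0.0672) and −0.40 (SE 0.12, adjusted p = 0.0361), the former lost without experiment 2 (adjusted p = 0.492).

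Prpf8 lies at the heart of the spliceosome and was the highest Prpf mRNA per kb. Prpf8 in polysome-associated mRNA stood at 398.8, 318.9 and 345 CPM in control cells, at 387.8, 293.4 and 445.1 CPM with LPS and at 354.6, 238.8 and 311.6 CPM with LPS and torin1. Total Prpf8 mRNA stood at 531.5, 552.8 and 593.6 CPM, 642.8, 556.4 and 684.7 CPM and 452.6, 450.9 and 513.5 CPM in the same order. It fell with torin1 in total mRNA without overlap, with a log2 change of −0.41 (SE 0.11, adjusted p = 0.0198), while in polysomes the estimate of −0.29 (SE 0.19, adjusted p = 0.346) passed with the replicate block (adjusted p = 0.138). Prpf4b is a kinase of the tri-snRNP and had the lowest called LPS change of the Prpf genes in polysomes. Prpf4b in polysome-associated mRNA stood at 53.1, 67.2 and 68.9 CPM in control cells, at 49.98, 37.9 and 58.5 CPM with LPS and at 53, 32.4 and 60.2 CPM with LPS and torin1. Total Prpf4b mRNA stood at 141.2, 113.4 and 144.7 CPM, 140.6, 87.8 and 130.5 CPM and 120.5, 89.4 and 111.7 CPM in the same order. Its change was −0.37 (SE 0.23, adjusted p = 0.249), just inside the threshold, and the control and LPS values overlapped. With any 1 experiment left out the adjusted p was between 0.347 and 0.433, and it was 0.292 with RLE scaling and 0.312 with DESeq2.

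Prpf40b, a U1-associated protein, was an exception among the snRNP genes because torin1 raised it in total mRNA. Prpf40b in polysome-associated mRNA stood at 8.96, 6.61 and 7.36 CPM in control cells, at 5.50, 9.95 and 6.28 CPM with LPS and at 6.90, 9.89 and 6.77 CPM with LPS and torin1. Total Prpf40b mRNA stood at 6.72, 5.62 and 6.45 CPM, 5.91, 7.91 and 6.59 CPM and 10.2, 9.66 and 10.1 CPM in the same order. All torin1 values in total mRNA exceeded all LPS values, with 0.55 (SE 0.15, adjusted p = 0.0212), and in polysomes the values overlapped, with 0.14 (SE 0.27, adjusted p = 0.773).

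**Figure D4:**
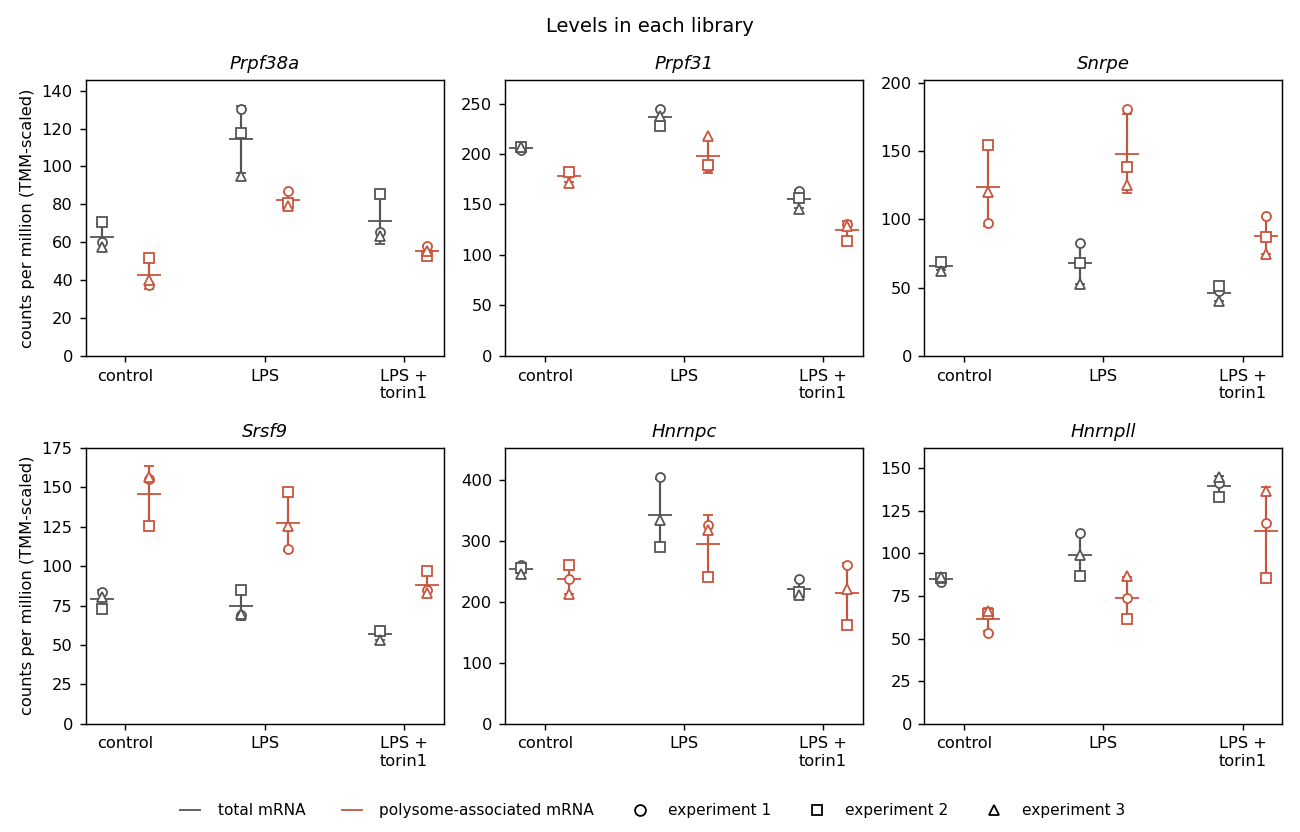
Levels (CPM after TMM scaling, axis from 0) of 6 genes in each library by treatment, for total (grey) and polysome-associated mRNA (red), with the mean and SD of 3 experiments. Prpf38a rises with LPS in all 3 experiments of both RNA types, Prpf31, Snrpe and Srsf9 are lowest with torin1, and Hnrnpll is highest with torin1.

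All 10 SR mRNAs had lower estimates with torin1 than with LPS in both RNA types. Srsf9, a small SR protein, had the largest fall in polysomes. Srsf9 in polysome-associated mRNA stood at 155.3, 125.4 and 156.5 CPM in control cells, at 110.8, 146.9 and 125.5 CPM with LPS and at 85.2, 97.1 and 82.8 CPM with LPS and torin1. Total Srsf9 mRNA stood at 83.8, 73.1 and 80.7 CPM, 69.1, 84.8 and 69.7 CPM and 59.3, 58.9 and 52.9 CPM in the same order. The torin1 values lay below all LPS values in both, with −0.51 (SE 0.16, adjusted p = 0.0614) and −0.39 (SE 0.11, adjusted p = 0.0243) in polysome-associated and total mRNA, and the polysome call was lost without experiment 3 (adjusted p = 0.415). Srsf1, the founding member of the family, fell most in total mRNA. Srsf1 in polysome-associated mRNA stood at 411.1, 350.04 and 398.6 CPM in control cells, at 429.5, 354.4 and 419.9 CPM with LPS and at 366.6, 260.02 and 343.3 CPM with LPS and torin1. Total Srsf1 mRNA stood at 523.6, 517.3 and 457.95 CPM, 609.8, 485.1 and 452.6 CPM and 393.5, 371.2 and 326.6 CPM in the same order. Its change was −0.50 (SE 0.13, adjusted p = 0.0173) in total mRNA with no overlap and −0.29 (SE 0.16, adjusted p = 0.261) in polysomes, where it passed with the block (adjusted p = 0.0883).

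Srsf3, the smallest family member, followed the same course. Srsf3 in polysome-associated mRNA stood at 263.7, 324.5 and 265.8 CPM in control cells, at 374.1, 289.8 and 323.2 CPM with LPS and at 293.4, 210.7 and 233.3 CPM with LPS and torin1. Total Srsf3 mRNA stood at 321.7, 338.1 and 300.4 CPM, 401.3, 328.3 and 331.5 CPM and 282.8, 255.2 and 233.6 CPM in the same order. Srsf3 fell with torin1, with a log2 change of −0.46 (SE 0.12, adjusted p = 0.0149) in total and −0.40 (SE 0.17, adjusted p = 0.145) in polysome-associated mRNA, the latter lost without experiment 1 (adjusted p = 0.315) and without experiment 3 (adjusted p = 0.569). Srsf2 had smaller estimates. Srsf2 in polysome-associated mRNA stood at 186.6, 105.6 and 144.1 CPM in control cells, at 111.6, 143.9 and 114.1 CPM with LPS and at 102.7, 132.9 and 103.7 CPM with LPS and torin1. Total Srsf2 mRNA stood at 226.9, 199.9 and 183.2 CPM, 202.3, 225.6 and 188.1 CPM and 196.6, 170.7 and 158.1 CPM in the same order. The polysome values of Srsf2 overlapped between all treatments, and its torin1 change was −0.23 (SE 0.12, adjusted p = 0.189) in total and −0.10 (SE 0.22, adjusted p = 0.8) in polysome-associated mRNA, the former lost without experiment 2 (adjusted p = 0.575), without experiment 3 (adjusted p = 0.386) and on library totals (adjusted p = 0.393).

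Srsf5 was the SR gene with the largest rise with LPS, and it was also higher than control with LPS and torin1. Srsf5 in polysome-associated mRNA stood at 96.3, 104.7 and 103.4 CPM in control cells, at 130.9, 131.4 and 158.7 CPM with LPS and at 139.9, 104.9 and 161.8 CPM with LPS and torin1. Total Srsf5 mRNA stood at 228.3, 189.9 and 221.2 CPM, 330.3, 230.5 and 269.8 CPM and 314.2, 233.7 and 263.5 CPM in the same order. LPS values exceeded control values in each library of both RNA types, with 0.47 (SE 0.17, adjusted p = 0.0536) and 0.38 (SE 0.15, adjusted p = 0.0693) in polysome-associated and total mRNA. On library totals the changes were 0.11 and 0.01 and passed no test, and the polysome call was lost without experiment 1 (adjusted p = 0.251) and without experiment 3 (adjusted p = 0.288). Against LPS the torin1 estimates were −0.03 and −0.03. Srsf6 fell with torin1 and rose with LPS in both RNA types, the LPS estimates turning to −0.11 in total and −0.01 in polysome-associated mRNA on library totals, and its polysome call with LPS was lost without experiment 1 (adjusted p = 0.353) and without experiment 3 (adjusted p = 0.419). The polysome call of Srsf6 with torin1 was lost with each experiment left out in turn (adjusted p between 0.272 and 0.651), on library totals (adjusted p = 0.375) and in models of only the treatments compared (adjusted p = 0.314). Srsf10 was the SR gene that fell with LPS in total mRNA, with a log2 change of −0.35 (SE 0.12, adjusted p = 0.0347).

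The hnRNP genes moved in both directions. Hnrnpc binds uridine tracts in introns. Hnrnpc in polysome-associated mRNA stood at 237.5, 259.9 and 212.98 CPM in control cells, at 326.2, 240.4 and 316.9 CPM with LPS and at 259.4, 161.3 and 220.2 CPM with LPS and torin1. Total Hnrnpc mRNA stood at 260.04, 255.02 and 245.8 CPM, 403.9, 288.8 and 333.9 CPM and 236.7, 216.3 and 211.4 CPM in the same order. In total mRNA the LPS values lay above all others, with 0.43 (SE 0.12, adjusted p = 0.016) with LPS and −0.63 (SE 0.12, adjusted p = 0.00487) with torin1, and the LPS call was lost on library totals (0.06, adjusted p = 0.673). In polysomes the values overlapped, with 0.31 (SE 0.19, adjusted p = 0.241) and −0.44 (SE 0.19, adjusted p = 0.152), the LPS estimate was −0.04 on library totals, and both calls were lost without experiment 1 or experiment 3 (adjusted p between 0.327 and 0.704).

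Hnrnpll, known for directing the splicing of Ptprc in lymphocytes, was the hnRNP gene that rose with torin1 in both RNA types. Hnrnpll in polysome-associated mRNA stood at 53.4, 64.5 and 65.9 CPM in control cells, at 73.5, 61.4 and 86.5 CPM with LPS and at 117.5, 85.7 and 136.2 CPM with LPS and torin1. Total Hnrnpll mRNA stood at 82.9, 85.5 and 86.3 CPM, 112.02, 86.6 and 98.98 CPM and 141.1, 132.99 and 144.5 CPM in the same order. In total mRNA all torin1 values exceeded all LPS values, and in polysomes 1 torin1 library of 85.7 CPM fell within the LPS range. The changes were 0.49 (SE 0.11, adjusted p = 0.00738) in total and 0.64 (SE 0.19, adjusted p = 0.0488) in polysome-associated mRNA, and the latter was lost without experiment 1 (adjusted p = 0.296) and without experiment 3 (adjusted p = 0.268). Against control the level with LPS and torin1 was 0.91 (SE 0.19, adjusted p = 0.00403) in polysomes, the largest rise of the 62 in that comparison. The smaller rise with LPS alone in total mRNA, 0.22, turned to −0.14 on library totals and was lost without experiment 1 (adjusted p = 0.449) and without experiment 3 (adjusted p = 0.296).

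Hnrnph2 was higher and Hnrnpr lower than in control cells both with LPS and with LPS and torin1. Hnrnph2 in polysome-associated mRNA stood at 34.5, 41.3 and 29.4 CPM in control cells, at 50.9, 44.8 and 51.3 CPM with LPS and at 73.2, 37.8 and 60.8 CPM with LPS and torin1. Total Hnrnph2 mRNA stood at 89.9, 90.2 and 79.8 CPM, 165.4, 116.2 and 107.3 CPM and 161.4, 139.2 and 134.2 CPM in the same order. Hnrnph2 rose with LPS, with a log2 change of 0.48 (SE 0.22, adjusted p = 0.124) in polysome-associated and 0.58 (SE 0.16, adjusted p = 0.0124) in total mRNA, without overlap, and stood at 0.73 and 0.74 against control with torin1. Hnrnpr in polysome-associated mRNA stood at 89.02, 93 and 101.1 CPM in control cells, at 65.5, 47.3 and 73.04 CPM with LPS and at 71.5, 38.9 and 71.7 CPM with LPS and torin1. Total Hnrnpr mRNA stood at 141.9, 130.4 and 143.2 CPM, 100.98, 74.6 and 94.8 CPM and 89.4, 68.99 and 84.2 CPM in the same order. Hnrnpr, a binder of RNA in transport granules, fell with LPS without overlap, with a log2 change of −0.61 (SE 0.23, adjusted p = 0.0677) and −0.62 (SE 0.14, adjusted p = 0.00386), both called under every alternative run at an FDR of 0.25, and its torin1 estimates against LPS were −0.01 and −0.16. The rise of Hnrnph2 was lost in both RNA types on library totals (0.21, adjusted p = 0.258, in total and 0.12, adjusted p = 0.674, in polysome-associated mRNA), and in polysomes also without experiment 1 (adjusted p = 0.372) and without experiment 3 (adjusted p = 0.509).

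Hnrnpk, a shuttling protein that binds cytidine-rich RNA, was higher with LPS in both RNA types under TMM scaling, though its estimates were −0.07 in total and −0.05 in polysome-associated mRNA on library totals. Hnrnpk in polysome-associated mRNA stood at 390.1, 453.6 and 411.1 CPM in control cells, at 512.7, 455.2 and 583.1 CPM with LPS and at 518.5, 388.04 and 519.4 CPM with LPS and torin1. Total Hnrnpk mRNA stood at 652.1, 645.5 and 612.7 CPM, 841.7, 786.5 and 714.7 CPM and 694.3, 685.7 and 652.6 CPM in the same order. Hnrnpk rose, with a log2 change of 0.29 (SE 0.10, adjusted p = 0.0307) in total and 0.30 (SE 0.16, adjusted p = 0.176) in polysome-associated mRNA, and fell with torin1 in total mRNA, with a log2 change of −0.20 (SE 0.10, adjusted p = 0.141), a call lost with each experiment left out in turn (adjusted p between 0.288 and 0.362). The polysome rise was lost without experiment 1 (adjusted p = 0.531) and without experiment 3 (adjusted p = 0.632). Hnrnpa1 in polysome-associated mRNA stood at 177.4, 207.5 and 165.2 CPM in control cells, at 220.2, 170.5 and 217.8 CPM with LPS and at 275.5, 194.5 and 247.8 CPM with LPS and torin1. Total Hnrnpa1 mRNA stood at 244.9, 220.96 and 220.9 CPM, 280.4, 212.2 and 272.7 CPM and 318.3, 251.9 and 255.3 CPM in the same order. Hnrnpa1, a shuttling repressor of exon inclusion, passed neither contrast without the replicate block, with torin1 estimates of 0.26 (SE 0.17, adjusted p = 0.337) and 0.11 (SE 0.14, adjusted p = 0.58), and pseudogenes are named after it. With the block the LPS change of Hnrnpa1 in total mRNA passed (adjusted p = 0.205). Hnrnpa2b1 in polysome-associated mRNA stood at 329.6, 283.3 and 299.1 CPM in control cells, at 276.4, 293.9 and 325.8 CPM with LPS and at 322.3, 275.7 and 335.9 CPM with LPS and torin1. Total Hnrnpa2b1 mRNA stood at 431.5, 351.7 and 438.7 CPM, 485.5, 410.1 and 491.3 CPM and 521.7, 411.6 and 464.5 CPM in the same order. Hnrnpa2b1 passed with LPS in total mRNA with the replicate block and with DESeq2 (change 0.18, adjusted p = 0.0693 with the block, 0.232 with DESeq2 and 0.282 in edgeR without the block).

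Hnrnpm, Hnrnpu and Hnrnph3 complete the genes followed in each library. Hnrnpm in polysome-associated mRNA stood at 86.4, 74.5 and 80.5 CPM in control cells, at 63.7, 70.4 and 91.7 CPM with LPS and at 86.7, 70.7 and 107.8 CPM with LPS and torin1. Total Hnrnpm mRNA stood at 226.6, 180.6 and 212.5 CPM, 259.3, 251.4 and 244.2 CPM and 255.7, 213.3 and 214.9 CPM in the same order. Hnrnpm, which binds guanine- and uridine-rich sites, rose with LPS in total mRNA, with a log2 change of 0.28 (SE 0.12, adjusted p = 0.0661), a value of −0.08 on library totals, and its polysome change was −0.10 (SE 0.18, adjusted p = 0.728). The call in total mRNA was lost without experiment 2 (adjusted p = 0.266). Hnrnpu in polysome-associated mRNA stood at 42.9, 48.4 and 57.6 CPM in control cells, at 53.5, 39.1 and 59.1 CPM with LPS and at 61.7, 37.4 and 70.7 CPM with LPS and torin1. Total Hnrnpu mRNA stood at 135.04, 102.4 and 130.04 CPM, 133.1, 96.9 and 117.8 CPM and 126.1, 103.4 and 128.1 CPM in the same order. The values of Hnrnpu overlapped in every contrast, the largest estimate being 0.19 (SE 0.23, adjusted p = 0.641) with torin1 in polysomes. Hnrnph3 in polysome-associated mRNA stood at 4.91, 4.60 and 4.66 CPM in control cells, at 2.90, 2.70 and 3.89 CPM with LPS and at 3.80, 4.27 and 4.44 CPM with LPS and torin1. Total Hnrnph3 mRNA stood at 8.64, 6.18 and 7.71 CPM, 8.30, 6.04 and 8.07 CPM and 8.54, 5.59 and 7.50 CPM in the same order. Hnrnph3 was lower with LPS than in control in polysomes, at −0.58 (SE 0.21, adjusted p = 0.0545), and was 0.43 (SE 0.21, adjusted p = 0.2) with torin1, on few counts. The fall was lost without experiment 1 (adjusted p = 0.324) and the rise with each experiment left out in turn (adjusted p between 0.439 and 0.476).

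Against control cells, LPS with torin1 lowered 23 and raised 8 of the 62 genes in total mRNA (33.6% and 33.1% of all genes), and lowered 16 and raised 7 in polysome-associated mRNA (29.7% and 28.5% of all genes). The largest falls in total mRNA were those of Hnrnpr, −0.78 (SE 0.14, adjusted p = 0.000969), and Prpf19, −0.70 (SE 0.12, adjusted p = 0.00103), and the rises were led by Hnrnph2, 0.74 (SE 0.16, adjusted p = 0.00315). Among SR genes 6 of 10 fell and 1, Srsf5, rose. On library totals the split was 3 higher and 43 lower in total and 2 higher and 41 lower in polysome-associated mRNA. There 8402 and 7437 of all genes passed. The polysome count of 23 was 11 without experiment 1 and 9 without experiment 3. That of all genes was 6546 with every experiment, and 4543 and 4156 in those settings. The median change of the 62 genes minus that of all genes was −0.115 in polysomes, and −0.005 without experiment 2.

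Whether an mRNA changed more in polysomes than in total was tested as translation efficiency, and no splicing gene passed. In the edgeR interaction of RNA type and treatment, 0 of 62 genes passed for LPS against control and 0 for LPS with torin1 against LPS, as did 0% of all 11243 genes in both. At an unadjusted p of 0.05 it was 0 of the 62 in both contrasts (2 and 0 with the replicate block), and 44 and 110 of all genes. These are smaller shares of all genes than 0.05, so the test was strict, and a lack of calls does not show a lack of change. The main model took the libraries of a lysate as independent, though they correlated at 0.389 to 0.649, and the part of this was not tested. DESeq2 called 0 of the 62 and 1 and 7 of all genes. The analysis of partial variance called 0 of the 62 and 10 and 21 of all genes. With the lysate as a replicate block edgeR called 0 of the 62 and 0 and 25 of all genes. The study used the anota2seq method at the same FDR and fold, and reported that LPS altered translation efficiency for some mRNAs. That method was not run here, so the counts cannot be set against the study's. In data simulated with the depth and spread of these libraries, the interaction test found 51.5% of the genes that had been altered by a log2 of 1. A difference of that size could thus be missed at this depth and number of experiments. The simulation drew each library independently, without effects shared within a lysate or an experiment, so the share found in the real libraries may differ.

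With LPS the interaction estimates ran from −0.57 for Hnrnph3 to 0.22 for Snrpe. For torin1, Prpf40b had the lowest, −0.44 (SE 0.30, log2 scale), then Snrpg with −0.37 (SE 0.24) and Snrpd2 with −0.36 (SE 0.21). Hnrnph3 had the highest, 0.45 (SE 0.28), then Hnrnpm with 0.37 (SE 0.22) and Sf3b1 with 0.23 (SE 0.30). The adjusted p of each was 1 in the edgeR test. The median difference between the changes in polysome-associated and total mRNA was −0.26 ± 0.06 for Snrp genes and 0.11 ± 0.19 for hnRNP genes, against −0.02 ± 0.03 for all genes (mean and SD over 3 experiments). The Snrp medians were −0.22, −0.22 and −0.33 in experiments 1, 2 and 3, and those of the hnRNP genes were 0.28, −0.10 and 0.13.

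**Figure D5:**
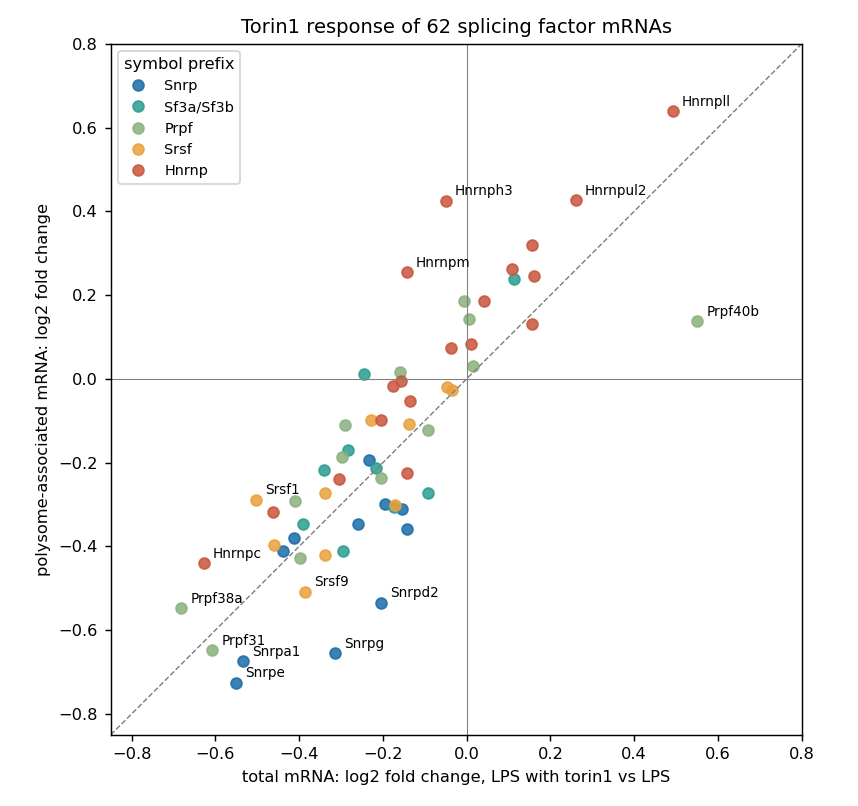
Log2 fold change with torin1 (LPS with torin1 against LPS) in polysome-associated mRNA (vertical axis) against total mRNA (horizontal axis) for the 62 genes, coloured by symbol prefix, with the line of equal change dashed. Snrp genes lie in the lower left, with 8 of 11 on the polysome-lower side of the line, and 17 of 19 hnRNP genes lie on the other side.

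Other splicing genes also fell more often than they rose with torin1. They were taken from 8 lists, each with between 8 and 26 genes in the table. With torin1 53 fell and 9 rose in total mRNA (edgeR, FDR 0.25), which is 44.5% and 7.56% of those measured, against 26.4% and 27.3% of all genes. In polysome-associated mRNA 35 fell and 7 rose, 29.4% and 5.88%, against 18.2% and 20.3% of all genes. With LPS 35 rose and 16 fell in total mRNA, 29.4% and 13.4%, so the share that rose was near the 32.2% of all genes and the share that fell was below their 34.3%. In polysome-associated mRNA 20 rose and 16 fell with LPS, 16.8% and 13.4%, against 26.4% and 28.7%. Proteins that assemble Sm rings, such as the SMN complex, had 10 falls and 1 rise of 12 in total mRNA with torin1 and 4 falls in polysome-associated mRNA, including in total mRNA Wdr77 with −0.61 (SE 0.13, adjusted p = 0.00665) and Gemin6 with −0.60 (SE 0.12, adjusted p = 0.00451). Of the 8 Lsm genes, whose ring holds the U6 snRNA, 6 fell in total and 5 in polysome-associated mRNA. Branch point and U2AF genes counted 7 and 6 falls of 10, including Phf5a, a partner of Sf3b1 within SF3b, with −0.62 (SE 0.15, adjusted p = 0.0214) in polysomes.

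With torin1 26.4% of all genes fell in total and 18.2% in polysome-associated mRNA. The core snRNP and tri-snRNP genes had 8 falls of 16 in total (50%) and 6 in polysome-associated mRNA (37.5%) and no rise. The falls were led in total mRNA by Txnl4a, a U5 snRNP protein, with −0.73 (SE 0.16, adjusted p = 0.00826). The spliceosomal helicases had 4 and 1 falls of 10 (40% and 10%), also with no rise, so in polysomes their share was below that of all genes. Genes of the Prp19-associated and exon junction complexes had 8 falls (44.4%) and 3 rises of 18 in total mRNA. Magohb, of the exon junction complex, rose with LPS from 7.44 to 26.6 CPM in total mRNA, 1.84 (SE 0.19, adjusted p = 3.79e-05) on the log2 scale, and was −0.80 (SE 0.19, adjusted p = 0.0106) with torin1. Among SR-related genes and SR kinases 3 fell and 2 rose of 19 in total mRNA, and the 15.8% that fell was below the share of all genes. The rises were those of the kinases Srpk2, with 0.94 (SE 0.17, adjusted p = 0.00343), and Clk1, with 0.55 (SE 0.19, adjusted p = 0.0492). Of 26 hnRNP-like genes 7 fell and 3 rose in total mRNA, and the 26.9% that fell was near the 26.4% of all genes. The rises included that of Cirbp, a cold-inducible RNA-binding protein. Cirbp fell with LPS by 1.31 on the log2 scale (SE 0.16, adjusted p = 0.00011) and rose with torin1 by 0.68 (SE 0.16, adjusted p = 0.0116).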

How the data were processed

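Raw read counts per gene, deposited by the authors as 1 table of 18 libraries, were used. Per the study's methods, ribosomal RNA was depleted, stranded libraries were sequenced paired-end, reads were aligned to GRCm38 with Hisat2 and counted with featureCounts on Ensembl genes, and protein-coding genes with no zero were kept. Versions of Hisat2 and the annotation are not given in the sources used here. Without the genes that had a zero, the table cannot show mRNAs absent from 1 library.

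From these counts, TMM-scaled edgeR 4.0.16 quasi-likelihood models (R 4.3.3) were fitted to all 11243 genes, separately for the 9 total and the 9 polysome libraries, with Benjamini-Hochberg adjustment and the study's FDR of 0.25. Translation efficiency was the interaction of RNA type and treatment over 18 libraries, with a fold minimum of 1.2, as was polysome against total mRNA in control cells. Standard errors were derived from the F statistics. Per-experiment changes used log2(CPM + 0.5). Exon and coding lengths came from GENCODE M21 on GRCm38. DESeq2 1.42.0, RLE scaling, library totals, filterByExpr, a replicate block, models of only the treatments compared, FDR 0.05, a pseudocount of 5, no fold minimum, analysis of partial variance and each experiment left out were alternatives. Counts were also simulated independently for each library, with 200 of 11243 genes changed by 1 (log2). There edgeR found 75.5% in total and 77% in polysome-associated mRNA for LPS against control.

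Experiment numbers were taken as pairing because the study describes 3 independent experiments with all treatments in each. Deviations from the treatment means correlated between same-numbered libraries at 0.149 to 0.424 in total and −0.0923 to 0.74 in polysome-associated mRNA, and at 0.389 to 0.649 between both libraries of a lysate. Differently numbered libraries correlated at −0.302 to 0.051 and −0.559 to 0.26. The control polysome library of experiment 1 correlated at 0.085 and 0.0338 with its own experiment, and at 0.166 and 0.26 with experiment 2. That of experiment 2 stood at −0.00997 and −0.0923 with its own experiment. The pairing of those control libraries thus rests on the study's description. The genes and lists were chosen with earlier results of these data known. Values in every library are given for the gene with the largest called rise and fall of the same sign in all 3 experiments, per group and contrast in polysomes, for the 3 lowest and 3 highest in translation efficiency, and for a set named for its role. From each other list at most the 2 largest rises and falls were named.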

Additional observations from a re-analysis of the deposited data

Results flagged for a closer look

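Hnrnpm moved in opposite directions with torin1 in the 2 RNA types. Its log2 change against LPS was −0.02, −0.24 and −0.18 in total mRNA and 0.44, 0.01 and 0.23 in polysome-associated mRNA of experiments 1, 2 and 3. The mean difference between them was 0.375, and the edgeR interaction test gave 0.37 (SE 0.22, adjusted p = 1), so the difference did not pass. Several of the 6 values lie close to 0. The Hnrnpm model overlaps March2 on the same strand, and the part of that overlap in the result was not tested.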

How the results depend on the processing

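At an FDR of 0.25, DESeq2, RLE scaling, filterByExpr and models of only the treatments compared left each count of splicing genes within 1.5 times its value. The replicate block raised the count with LPS in total mRNA from 25 to 38 and changed none of the calls made without it for the genes followed by name, and it added calls. On library totals alone the counts were 39 with LPS in total and 32 in polysome-associated mRNA, and 43 for LPS with torin1 against control in polysomes. Of all genes 8688, 7640 and 7437 passed in the same order. The LPS medians on totals were −0.27 and −0.29 for snRNP, −0.27 and −0.25 for SR and −0.26 and −0.33 for hnRNP genes in total and polysome-associated mRNA, and the torin1 medians −0.18 and −0.17 for snRNP genes, −0.20 for SR genes in polysomes and −0.012 for hnRNP genes in total mRNA. Reversed there with LPS were Sf3b6 (−0.12), Prpf31 (−0.17), Hnrnpll (−0.14), Snrpd2 (−0.17), Hnrnpm (−0.084), Prpf8 (−0.20), Hnrnpk (−0.075) and Srsf6 (−0.11) in total mRNA and Hnrnpc (−0.044), Snrpd2 (−0.037), Hnrnpk (−0.052), Snrpa1 (−0.15) and Srsf6 (−0.006) in polysomes, in step with the shift of all genes. At an FDR of 0.05 the counts for LPS, torin1 against LPS and LPS with torin1 against control were 7, 19 and 19 in total and 1, 5 and 8 in polysome-associated mRNA, and other splicing genes counted 26 and 34 in total and 9 and 9 in polysome-associated mRNA for LPS and torin1. With 1 experiment left out, polysome counts ran from 2 to 37 for LPS, from 2 to 27 for torin1 against LPS and from 9 to 32 for LPS with torin1 against control. Over all genes they ran from 3901 to 7251, from 1187 to 5182 and from 4156 to 7627. The cause was not tested. Of the calls with torin1, 19 of 32 in total and 2 of 18 in polysome-associated mRNA were made under each of 9 alternatives, and of those with LPS 3 of 25 and 2 of 19.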
